A study of Mus musculus with 18 samples.

Results

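The transcripts of 9 genes that mark blood vessel endothelium, the cell layer lining vessels, were followed through RNA sequencing of mouse colorectal tissue. The genes were Tek, Tie1, Kdr, Eng, Ramp2, Cdh5, Pecam1, Cldn5 and Emcn. They were taken by name from a set of 10 endothelial genes, of which Flt1 was not analysed here, and they are 9 of the 10897 genes measured.

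The tissue came from 3 groups with 6 libraries each, named GF-AOMS, GF-AOM and Control. All mice were male C57BL/6J animals of 10 weeks, and colon RNA was depleted of ribosomal RNA. AOM is azoxymethane, a carcinogen that induces colon tumours. In the sample characteristics, GF-AOMS stands for germ-free mice that received AOM and cigarette smoke, GF-AOM for germ-free mice that received AOM, and Control for wild-type mice with a specific pathogen-free (SPF) flora and AOM-induced colorectal cancer. The treatment protocol reads differently: GF-AOMS is AOM with smoke, GF-AOM is the AOM model, Control is a normal group, and the growth protocol houses all mice in an SPF facility. Smoke is what separates GF-AOMS from GF-AOM under both readings, whereas what separates either of them from Control is not settled, so groups are called by name. The labels give 6 mice per group without stating how libraries relate to mice, and p-values measure the spread between these libraries.

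Endothelial cells sense their surroundings through receptors that are mostly their own. Vascular endothelial growth factor acts through Kdr (VEGF receptor 2), angiopoietins act through the receptor kinase Tek (Tie2) with its partner Tie1, bone morphogenetic proteins use the co-receptor Eng (endoglin), and adrenomedullin uses a receptor built from Calcrl and Ramp2. Cells are held together by Cdh5 (VE-cadherin) at adherens junctions, Cldn5 (claudin 5) at tight junctions and Pecam1 (CD31) along the contacts, and Emcn (endomucin) coats the surface of capillaries and veins. Pecam1 is also made by platelets and leukocytes, and Eng by some macrophages and stromal cells. In bulk tissue, fewer endothelial cells and less of a transcript per cell cannot be told apart.

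Promoter sequences are shown for every gene that had one, since these genes are made by the same cell type and their promoters can be set side by side. RefSeq promoters of build GRCm38.p6, from 250 bases before to 50 bases after the start, were matched by symbol for 6 of the 9 genes (Cldn5, Emcn, Eng, Kdr, Tek and Tie1). Capitals mark AGGAAG on either strand (its reverse complement is in capitals too), a core recognised by ETS factors, the transcription factor family with the best-known role in endothelial promoters.
Emcn, chr3:137340828-137341127, plus strand: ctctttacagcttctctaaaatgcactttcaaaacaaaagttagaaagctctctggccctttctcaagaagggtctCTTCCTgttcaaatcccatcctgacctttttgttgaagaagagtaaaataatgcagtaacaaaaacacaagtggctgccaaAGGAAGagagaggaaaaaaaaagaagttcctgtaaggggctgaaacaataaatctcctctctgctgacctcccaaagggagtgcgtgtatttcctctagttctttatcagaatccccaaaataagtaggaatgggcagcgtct
Eng, chr2:32646345-32646644, plus strand: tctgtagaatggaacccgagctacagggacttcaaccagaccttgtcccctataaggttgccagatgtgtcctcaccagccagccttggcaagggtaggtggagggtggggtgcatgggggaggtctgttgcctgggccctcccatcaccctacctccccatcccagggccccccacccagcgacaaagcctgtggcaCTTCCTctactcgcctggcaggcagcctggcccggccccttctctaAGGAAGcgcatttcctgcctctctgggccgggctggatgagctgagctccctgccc
Tie1, chr4:118489800-118490099, minus strand: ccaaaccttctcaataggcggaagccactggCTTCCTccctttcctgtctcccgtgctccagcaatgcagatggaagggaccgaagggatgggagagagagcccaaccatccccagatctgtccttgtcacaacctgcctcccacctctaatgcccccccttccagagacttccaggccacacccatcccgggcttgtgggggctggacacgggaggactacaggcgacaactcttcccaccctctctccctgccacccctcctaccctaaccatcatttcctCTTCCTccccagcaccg
Tek, chr4:94739039-94739338, plus strand: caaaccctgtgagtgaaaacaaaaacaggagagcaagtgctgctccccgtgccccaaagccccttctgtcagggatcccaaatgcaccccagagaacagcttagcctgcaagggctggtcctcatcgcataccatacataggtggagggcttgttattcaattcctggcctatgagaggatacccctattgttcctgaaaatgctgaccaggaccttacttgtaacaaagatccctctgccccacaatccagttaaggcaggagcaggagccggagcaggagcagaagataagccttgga
Kdr, chr5:75978406-75978705, minus strand: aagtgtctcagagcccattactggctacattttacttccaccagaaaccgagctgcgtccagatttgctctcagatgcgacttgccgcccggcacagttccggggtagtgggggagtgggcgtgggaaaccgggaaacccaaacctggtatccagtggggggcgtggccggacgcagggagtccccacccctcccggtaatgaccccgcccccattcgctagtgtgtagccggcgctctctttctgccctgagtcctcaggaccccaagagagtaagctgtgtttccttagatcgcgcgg
Cldn5, chr16:18776597-18776896, plus strand: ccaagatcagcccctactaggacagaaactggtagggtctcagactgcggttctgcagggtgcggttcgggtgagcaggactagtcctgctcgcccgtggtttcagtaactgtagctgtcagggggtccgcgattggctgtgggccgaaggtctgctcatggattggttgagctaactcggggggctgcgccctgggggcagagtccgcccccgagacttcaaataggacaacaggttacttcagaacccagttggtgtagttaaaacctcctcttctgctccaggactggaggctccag
The ETS letters occurred in the promoters of Emcn, Eng and Tie1, with 2 matches each, that is in 3 of 6, and in 35.4% of 32851 promoters of the same length. In Emcn they began 174 and 93 bases before the start, and in Eng 52 and 6 bases before it. In Tie1 they began 219 bases before and 33 bases after it. By the positions of the table, Tie1 starts further upstream, at 118490061, so most of its window lies within the gene. AGATAA, the letters that factors of the GATA family bind, was found in 1 of 6 (Tek) against 11.2% of all promoters, beside 0 of 6 for the FOX core TAAACA against 13.4% of all promoters. The SOX core searched was ACAATG, with 0 of 6 against 12.6%. All were searched on both strands, and no matches overlapped in these promoters.

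Depth ran from 48.95 M to 79.23 M counts per library (M for mega). Counts of the 9 genes ran from 146 (Tek in GF-AOMS replicate 2) to 6998 (Pecam1 in Control replicate 6). Every gene of the table reached an FPKM of 1 in at least 15 of 18 libraries, and 5 of the 9 endothelial genes did so in all 18 and the other 4 in 17. FPKM is fragments per kilobase scaled by depth, and CPM below is counts per M counts with TMM scaling, which corrects for composition. In 5 libraries the TMM factor was under 0.9 (GF-AOMS replicates 1 and 2, GF-AOM replicates 3 and 6, Control replicate 2). Length slopes, the change in log2 CPM per doubling of gene length relative to the other libraries, were from -0.314 to 0.082 in GF-AOMS, from -0.203 to 0.0946 in GF-AOM and from -0.0974 to 0.205 in Control. Hoxa13, a marker of the distal colon, lay over 3 log2 units below the highest library in 4 of 6 Control libraries and in none of the GF libraries. Mean RNA composition also moved with the groups. Mitochondrial genes took 3.12 ± 0.67% of the counts in GF-AOMS, 3.15 ± 0.494% in GF-AOM and 4.59 ± 0.722% in Control, and ribosomal protein genes took 12.5 ± 6.17, 13.1 ± 4.49 and 7.7 ± 3.46% (mean ± SD, n = 6 each). The part of this composition in the differences from Control was not tested.

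Per length of transcript, Pecam1 and Eng were the most abundant, at 8.77 ± 2.83 and 8.66 ± 2.86 FPKM (mean ± SD over 18 libraries). Cldn5 followed at 5.95 ± 1.43 FPKM and Ramp2 at 5.27 ± 3.08 FPKM. Cdh5 averaged 3.58 ± 1.4 FPKM and Tie1 3.37 ± 1.23 FPKM. The lowest levels were those of Tek at 2.34 ± 0.9, Kdr at 2.11 ± 0.786 and Emcn at 1.85 ± 0.577 FPKM. Each mean lay within 1 SD of the gene above it in this order. Within libraries, Pecam1 exceeded Eng in 10 of 18, Eng exceeded Cldn5 in 13, Cldn5 exceeded Ramp2 in 14 and Ramp2 exceeded Cdh5 in 12. Cdh5 exceeded Tie1 in 12 of 18, Tek exceeded Kdr in 12 and Kdr exceeded Emcn in 11, so these neighbours did not keep a fixed order. The step from Tie1 to Tek held in 18 of 18 libraries. The first rank was held by Pecam1 in 7 libraries, by Eng in 7, by Ramp2 in 3 and by Cldn5 in 1.

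**Figure D1:**
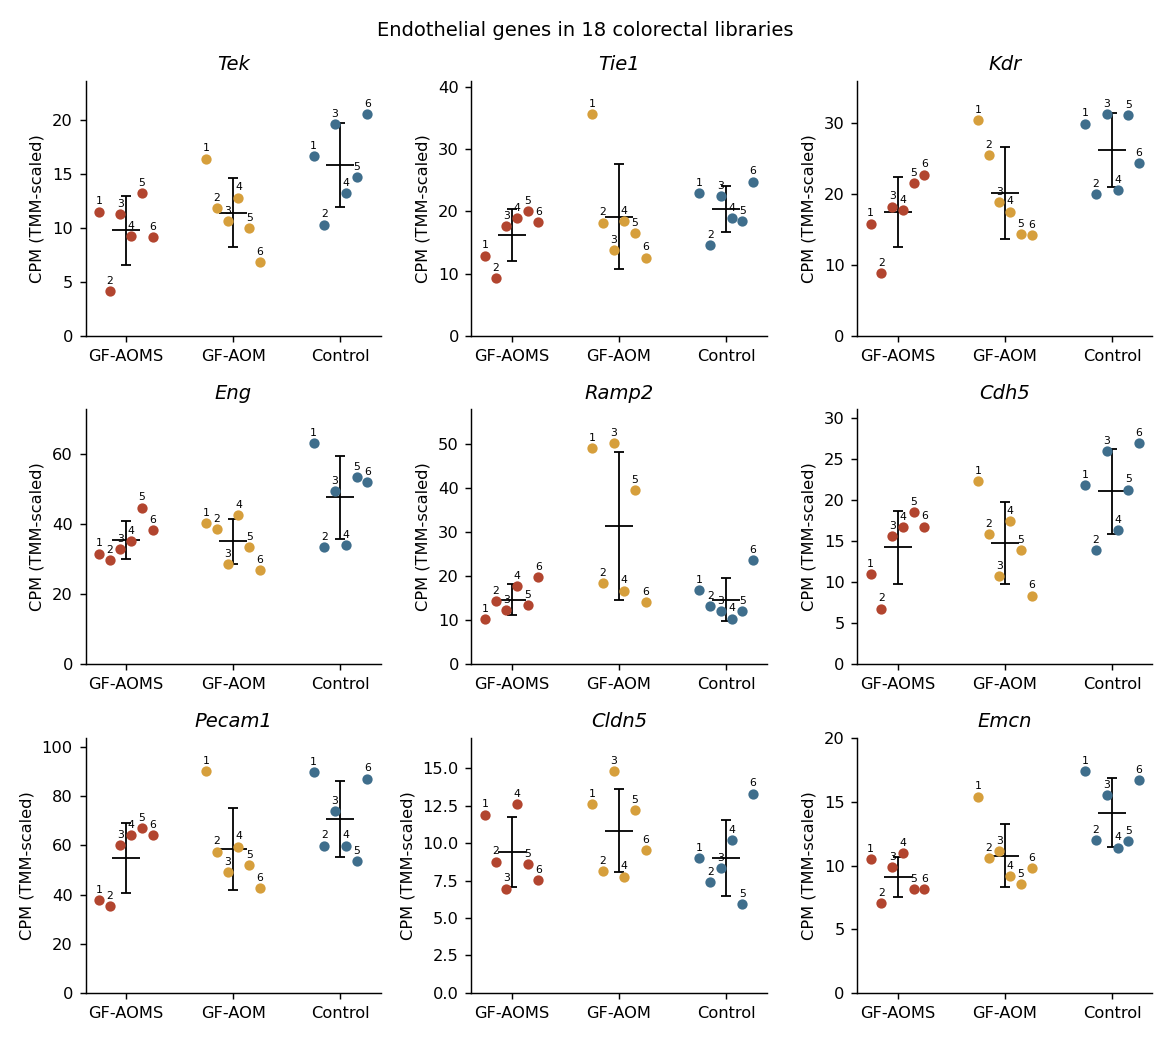
CPM (TMM-scaled counts per mega counts, linear axis from 0) of the 9 endothelial genes in GF-AOMS, GF-AOM and Control, 1 point per library with its replicate number, and bars for the mean and SD (n = 6). Ramp2 stands near 50 CPM in GF-AOM replicates 1 and 3, Emcn lies below every Control library in all 6 GF-AOMS libraries, and GF-AOMS replicate 2 is low in most panels.

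Summed over the 9 genes, endothelial transcripts amounted to 181 ± 35.4 CPM in GF-AOMS (from 124 to 215), 212 ± 54.4 CPM in GF-AOM (from 145 to 312) and 240 ± 45.6 CPM in Control (from 185 to 289; mean ± SD, n = 6 each). The 3 ranges overlap. Without Ramp2 the sums were 166 ± 34, 181 ± 45.2 and 225 ± 42.1 CPM in the same order of groups. GF-AOMS replicate 2 had the lowest sum, 124 CPM, and the lowest value of all 18 libraries for 6 of the 9 genes. That library also had the lowest TMM factor, 0.7206, and the lowest length slope, -0.314. GF-AOM replicate 1 had the highest sum, 312 CPM, with a TMM factor of 1.031 and a length slope of -0.000653.

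Comparing GF-AOMS with GF-AOM asks what smoke exposure adds to AOM. Adjusted p under 0.05 by edgeR's quasi-likelihood test was reached by 0 of 9 endothelial genes, beside 0% of all 10897 genes. An unadjusted p under 0.05 was reached by 1 of 9 (Ramp2) beside 1.09% of all genes, DESeq2 called 0 of 9 beside 0.0276%, and limma called 0. Mean levels were lower in GF-AOMS for 8 of 9, with a median log2 difference of -0.21, where 46.4% of all genes had a difference below 0 and the median of all genes was 0.01. Leaving out GF-AOM replicate 1 brought that median to -0.0485, and leaving out GF-AOM replicate 6 brought it to -0.263.

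Ramp2, the partner that makes Calcrl an adrenomedullin receptor, had the largest difference of the 9 with smoke. In GF-AOMS its 6 libraries lay at 10.3, 14.3, 12.3, 17.8, 13.5 and 19.8 CPM. GF-AOM replicates 1, 3 and 5 lay at 48.9, 50.2 and 39.4 CPM, and replicates 2, 4 and 6 at 18.4, 16.7 and 14.2 CPM. The GF-AOM libraries thus fall into high and low ones, and the low ones are within the range of GF-AOMS. The log2 difference was -1.09 (SE 0.312, adjusted p = 1 by edgeR), and it ranged from -1.24 to -0.9 when single libraries were left out. Over its span in the table (chromosome 11, 101246028 to 101248250, plus strand), Ramp2 overlaps no other gene of the GENCODE M21 annotation. That annotation ends Ramp2 at 101259546, and overlaps beyond the table's end were not examined.

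The other measured genes of that system included the receptor, its ligand and both relatives of Ramp2. Calcrl, the receptor itself, averaged 19 ± 3.53 CPM in GF-AOMS, 21.5 ± 5.89 CPM in GF-AOM and 20.4 ± 5.23 CPM in Control. Adm, the adrenomedullin precursor, averaged 4.45 ± 0.991, 3.83 ± 0.851 and 4.76 ± 1.02 CPM. Of 6 measured genes of the adrenomedullin list (9 listed), 0 were called in any comparison by edgeR, DESeq2 or limma. An unadjusted p under 0.05 was reached by 0 with edgeR in any comparison, and for GF-AOM vs Control by 1 with DESeq2 and 3 with limma. By edgeR, 15.7% of all genes reached it for GF-AOM vs Control. The shares of all genes for DESeq2 and limma were not counted, so these 2 counts cannot be set against them. Ramp3, a Ramp2 relative that also pairs with Calcrl, averaged 5.52 ± 1.86 CPM in GF-AOMS, 6.75 ± 1.54 CPM in GF-AOM and 4.67 ± 1.99 CPM in Control. It had log2 differences of -0.29 (SE 0.274) for GF-AOMS vs GF-AOM and 0.53 (SE 0.275) for GF-AOM vs Control, with adjusted p of 1 and 0.342 by edgeR. Ramp1, the relative that makes Calcrl a receptor for calcitonin gene-related peptide, averaged 253 ± 138, 285 ± 121 and 178 ± 89.9 CPM in the same order of groups. Its log2 differences were -0.17 (SE 0.381, adjusted p = 1) for GF-AOMS vs GF-AOM and 0.68 (SE 0.382, adjusted p = 0.364) for GF-AOM vs Control, and the second was 0.1 with the length slope term. Means of all 3 Ramp genes were thus highest in GF-AOM, and whether Ramp2 differed from its relatives was not tested.

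Among the remaining receptors, 0 were called with smoke. Tek averaged 9.76 ± 3.15 CPM in GF-AOMS, against 11.4 ± 3.19 CPM in GF-AOM, a log2 difference of -0.23 (SE 0.247). Tie1 averaged 16.2 ± 4.18 CPM in GF-AOMS, against 19.2 ± 8.39 CPM in GF-AOM, where replicate 1 alone reached 35.6 CPM. Without that library the log2 difference of Tie1 changed sign, to 0.0226, against -0.25 (SE 0.236) with all libraries. For Kdr the means were 17.5 ± 4.92 CPM in GF-AOMS, against 20.1 ± 6.53 CPM in GF-AOM (log2 difference -0.2, SE 0.224). Eng was at 35.4 ± 5.44 CPM in GF-AOMS, against 35.1 ± 6.38 CPM in GF-AOM, with a log2 difference of 0.0132 (SE 0.164) whose sign depended on the library left out. All of these had adjusted p = 1 by edgeR.

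Of the junction and surface genes 0 were called between GF-AOMS and GF-AOM. Cdh5 averaged 14.3 ± 4.47 CPM in GF-AOMS, against 14.8 ± 4.97 CPM in GF-AOM, and Pecam1 54.8 ± 14.4 and 58.5 ± 16.6 CPM. Their log2 differences, -0.0511 (SE 0.253) and -0.0947 (SE 0.202), both turned positive without GF-AOM replicate 1, to 0.103 and 0.0693. Cldn5 averaged 9.4 ± 2.33 CPM in GF-AOMS, against 10.8 ± 2.79 CPM in GF-AOM (log2 difference -0.2, SE 0.214). Emcn averaged 9.11 ± 1.57 CPM in GF-AOMS, against 10.8 ± 2.47 CPM in GF-AOM (log2 difference -0.24, SE 0.167), and 3 of the 6 GF-AOMS libraries lay below the lowest GF-AOM library. The groups overlapped for all 9 genes, beside 0.00918% of all genes with GF-AOMS below every GF-AOM library.

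**Figure D2:**
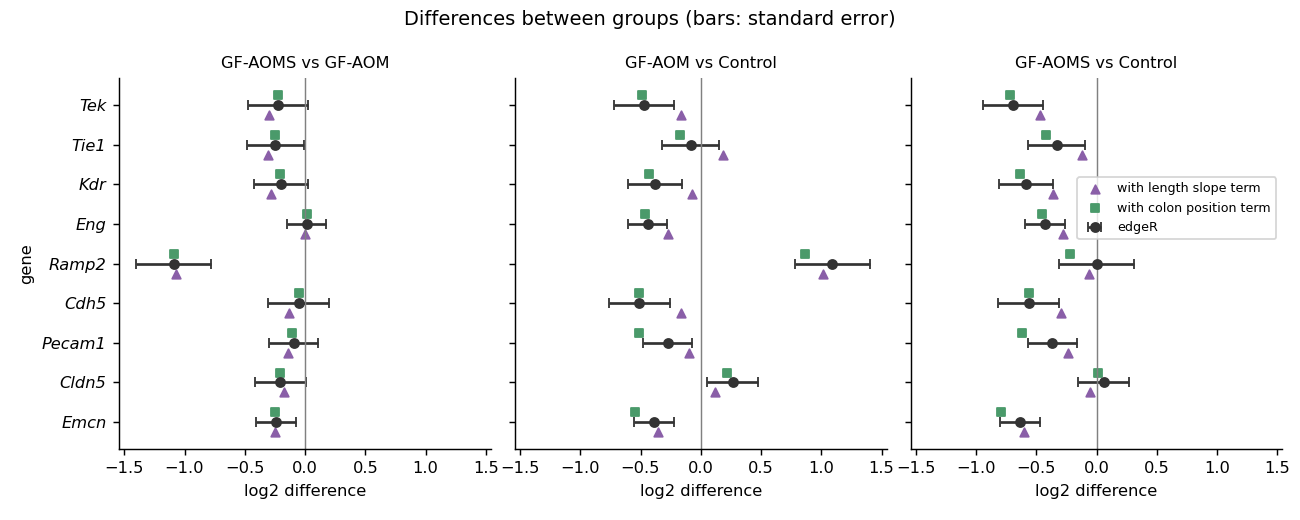
Log2 differences of the 9 endothelial genes in the 3 comparisons (edgeR, circles, with standard errors), with the same values from fits that add the library's length slope (triangles) or its colon position (squares). Ramp2 departs from the rest in the comparisons with GF-AOM, and the length slope term brings Tek, Cdh5 and Kdr closer to 0 in both comparisons with Control.

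Against Control, GF-AOM had lower mean levels of 7 of the 9 genes and higher levels of Ramp2 and Cldn5. For 0 of 9 did the groups separate, beside 0.459% of all genes with GF-AOM below all Control libraries. By edgeR's adjusted p, 0 of 9 were called beside 0.00918% of all genes (1 gene). An unadjusted p under 0.05 was reached by 3 of 9 (Ramp2, Eng and Emcn) beside 15.7% of all genes. DESeq2 called 1 of 9 (Ramp2) beside 2.66% of the 10677 genes it gave an adjusted p, and limma called 0. The median log2 difference was -0.38, beside -0.0038 over all genes, and 50.5% of all genes lay below 0. With the length slope as a term the median was -0.0949.

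Ramp2 averaged 31.3 ± 16.8 CPM in GF-AOM and 14.7 ± 4.88 CPM in Control, where the lowest, median and highest libraries were at 10.4, 12.6 and 23.6 CPM. GF-AOM replicates 1, 3 and 5 lay above every Control library, and replicates 2, 4 and 6 lay among them. The log2 difference was 1.09 (SE 0.312), with an adjusted p of 0.132 by edgeR. DESeq2 called Ramp2 higher, with a log2 difference of 1.1 (SE 0.316) and an adjusted p of 0.0269. Over the alternatives tried, the difference ran from 0.741 to 1.28 and the adjusted p from 0.0269 to 0.999. It was 1.01 (SE 0.349) with the length slope term and 0.87 (SE 0.441) with a term for colon position. Cldn5 was also highest within GF-AOM in replicates 1, 3 and 5, at 12.6, 14.8 and 12.2 CPM, beside 8.13, 7.77 and 9.54 CPM in replicates 2, 4 and 6. Its group means, 10.8 ± 2.79 CPM in GF-AOM and 9.02 ± 2.56 CPM in Control, differed by less than the spread between libraries (log2 difference 0.26, SE 0.214, adjusted p = 0.495 by edgeR, and 0.12 with the length slope term).

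Eng, the co-receptor for bone morphogenetic proteins, lay at 27 (lowest), 36 (median) and 42.5 CPM (highest) in GF-AOM, and at 33.4, 50.8 and 63.2 CPM in Control. All 6 GF-AOM libraries were below the Control mean, and 2 were below the lowest Control library. The log2 difference was -0.44 (SE 0.164, adjusted p = 0.234 by edgeR), and it was -0.28 (SE 0.146) with the length slope term. Eng (chromosome 2, 32646595 to 32682658, plus strand, 15 exons) overlaps Fpgs, which is on the other strand and also in the table, and small RNA genes. Since the strand setting of the counting is not stated, reads of Fpgs in Eng cannot be told apart.

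For the Tie receptors, Tek was at 6.8, 11.2 and 16.4 CPM (lowest, median and highest) in GF-AOM, and at 10.3, 15.6 and 20.5 CPM in Control. Its log2 difference was -0.47 (SE 0.247), and -0.16 (SE 0.211) with the length slope term. Tie1 lay at 12.6, 17.4 and 35.6 CPM in GF-AOM, and at 14.6, 20.7 and 24.8 CPM in Control. That gives -0.084 (SE 0.235) for Tie1, and the sign turned, to 0.185, with the length slope term. Kdr lay at 14.2, 18.1 and 30.4 CPM in GF-AOM, and at 20, 27.1 and 31.2 CPM in Control. Its log2 difference of -0.38 (SE 0.224) was -0.0722 (SE 0.181) with the length slope term. Adjusted p values for the 3 genes were 0.344, 0.857 and 0.376 by edgeR, and the groups overlapped for each.

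Cdh5 lay at 8.38, 14.9 and 22.3 CPM (lowest, median and highest) in GF-AOM, and at 13.9, 21.5 and 27 CPM in Control. The log2 difference was -0.51 (SE 0.253, adjusted p = 0.331 by edgeR) and shrank to -0.17 (SE 0.181) with the length slope term. Pecam1 lay at 42.7, 54.8 and 90.2 CPM in GF-AOM, and at 53.6, 66.9 and 89.9 CPM in Control (log2 difference -0.27, SE 0.202, adjusted p = 0.456). It was -0.0949 (SE 0.188) with the length slope term and -0.51 (SE 0.258) with the colon position term. Emcn was at 15.4, 10.6, 11.1, 9.16, 8.55 and 9.81 CPM in GF-AOM, and at 17.4, 12, 15.5, 11.4, 11.9 and 16.7 CPM in Control. Thus 5 of 6 GF-AOM libraries were below the lowest Control library and replicate 1 was not. For Emcn the log2 difference was -0.39 (SE 0.166, adjusted p = 0.285), and -0.35 (SE 0.18) with the length slope term.

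Between GF-AOMS and Control, 7 of the 9 genes had lower means in GF-AOMS, Cldn5 had a slightly higher one and Ramp2 was at the same level in both groups. The edgeR test called 0 of 9 beside 0.734% of all genes (80 genes). An unadjusted p under 0.05 was reached by 5 of 9 (Tek, Eng, Cdh5, Emcn and Kdr) beside 16.2% of all genes. DESeq2 called 1 of 9 (Emcn) beside 3.44% of all genes, and limma called 0. The median log2 difference was -0.43, beside 0.0064 over all genes, of which 49% lay below 0. It was -0.28 with the length slope term, -0.56 with the colon position term and -0.41 without the 5 libraries with a TMM factor under 0.9. Both comparisons with Control use the same 6 Control libraries.

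Emcn, the endothelial surface sialomucin (chromosome 3, 137341067 to 137432185, plus strand, 12 exons), separated the groups. GF-AOMS libraries lay at 10.5, 7.03, 9.85, 11, 8.13 and 8.13 CPM, and the lowest of the Control libraries was at 11.4 CPM. All 6 GF-AOMS libraries were therefore below all 6 Control libraries, as was the case for 0.541% of all genes in this direction. Means were 9.11 ± 1.57 CPM in GF-AOMS and 14.2 ± 2.69 CPM in Control. The log2 difference was -0.64 (SE 0.167), with an adjusted p of 0.0854 by edgeR. DESeq2 called Emcn lower, with a log2 difference of -0.62 (SE 0.169) and an adjusted p of 0.014. Leaving out Control replicate 2 brought the adjusted p of edgeR to 0.0369, and leaving out each other library left it at 0.05 or above, up to 0.194. The difference was -0.6 (SE 0.175, adjusted p = 0.115) with the length slope term, -0.65 without the 5 libraries with a low TMM factor, and -0.69 without the 4 Control libraries low in Hoxa13. With the colon position term it was -0.79 (SE 0.215, adjusted p = 0.963), in a fit that called 0 of all genes.

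Tek, at 4.14, 10.3 and 13.2 CPM (lowest, median and highest) in GF-AOMS and 10.3, 15.6 and 20.5 CPM in Control, had the largest negative difference, -0.7 (SE 0.248, adjusted p = 0.197 by edgeR). All 6 GF-AOMS libraries were below the Control mean, and 3 were below the lowest Control library. The lowest of them, replicate 2, was also the library with the lowest length slope, and with the slope as a term the difference was -0.47 (SE 0.204). Kdr lay at 8.84, 17.9 and 22.7 CPM in GF-AOMS and at 20, 27.1 and 31.2 CPM in Control, a difference of -0.58 (SE 0.225, adjusted p = 0.23). It was -0.36 (SE 0.175) with the length slope term. Tie1 had 9.27, 18 and 20 CPM in GF-AOMS and 14.6, 20.7 and 24.8 CPM in Control, a difference of -0.33 (SE 0.236, adjusted p = 0.476), and -0.12 (SE 0.198) with that term.

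Eng lay at 29.7, 34 and 44.7 CPM (lowest, median and highest) in GF-AOMS, and at 33.4, 50.8 and 63.2 CPM in Control. All 6 GF-AOMS libraries were below the Control mean, with a log2 difference of -0.43 (SE 0.164, adjusted p = 0.228 by edgeR) and of -0.28 (SE 0.145) with the length slope term. Cdh5 (chromosome 8, 104101625 to 104144511, plus strand) lay at 6.8, 16.2 and 18.6 CPM in GF-AOMS, and at 13.9, 21.5 and 27 CPM in Control. Its difference was -0.56 (SE 0.254, adjusted p = 0.29), and -0.3 (SE 0.177) with the slope term. Cdh5 overlaps Gm29682, an antisense gene on the other strand that is not among the genes measured. As for Eng, reads of the overlapping gene cannot be told apart. Pecam1 lay at 35.4, 62.2 and 67.2 CPM in GF-AOMS, and at 53.6, 66.9 and 89.9 CPM in Control (difference -0.37, SE 0.202, adjusted p = 0.369). With the slope term it was -0.24 (SE 0.183), and with the colon position term -0.62 (SE 0.263). Cldn5, a gene of 1 exon (chromosome 16, 18776847 to 18778262, plus strand), averaged 9.4 ± 2.33 CPM in GF-AOMS and 9.02 ± 2.56 CPM in Control (difference 0.0585, SE 0.214, adjusted p = 0.904). Its sign turned, to -0.0541, with the slope term. Ramp2 averaged 14.7 ± 3.56 CPM in GF-AOMS and 14.7 ± 4.88 CPM in Control, a difference of -0.000119 (SE 0.309).

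Correlations show how the genes varied together from library to library. After group means were subtracted from log2 CPM, Pearson's r was computed for all 36 pairs over the 18 libraries, with permutations within groups and Benjamini-Hochberg adjustment over the 36 pairs. Over the 36 pairs r ran from -0.171 to 0.928 with a median of 0.595, and 20 pairs had an adjusted p under 0.05 (18 by Spearman's rho). The closest pairs were Tie1 with Cdh5 (r = 0.928, rho = 0.934) and Tie1 with Pecam1 (r = 0.924, rho = 0.928), both with a permutation adjusted p of 0.00036 by r. Without the 2 libraries farthest from the median, r was 0.938 and 0.888. Tek and Cdh5 followed at r = 0.884 (rho = 0.86), and at 0.761 without the 2 farthest libraries. Emcn was less close to these genes, with r = 0.641 for Tie1, 0.512 for Cdh5 and 0.364 for Eng (rho = 0.364 for Eng, and r = 0.17 without the 2 farthest libraries).

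Pairs with Ramp2 or Cldn5 had mostly lower r, without a sharp boundary. The 8 pairs with Ramp2 had r from 0.194 to 0.578, and 1 of them passed, Cldn5 with Ramp2 (r = 0.578, rho = 0.567, permutation adjusted p = 0.0378 by r and 0.0512 the lowest by rho). Without the 2 farthest libraries this pair had r = 0.395. The other 7 pairs with Cldn5 had r from -0.171 to 0.475, and 0 passed by either measure. Ramp2 with Pecam1 (0.483) and Cldn5 with Emcn (0.475) exceeded Emcn with Eng. Within the 6 Control libraries, the median r was 0.556 for the pairs with Ramp2 and 0.491 for those 7 pairs with Cldn5, beside 0.655 for all pairs. Differences between these correlations were not tested.

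**Figure D3:**
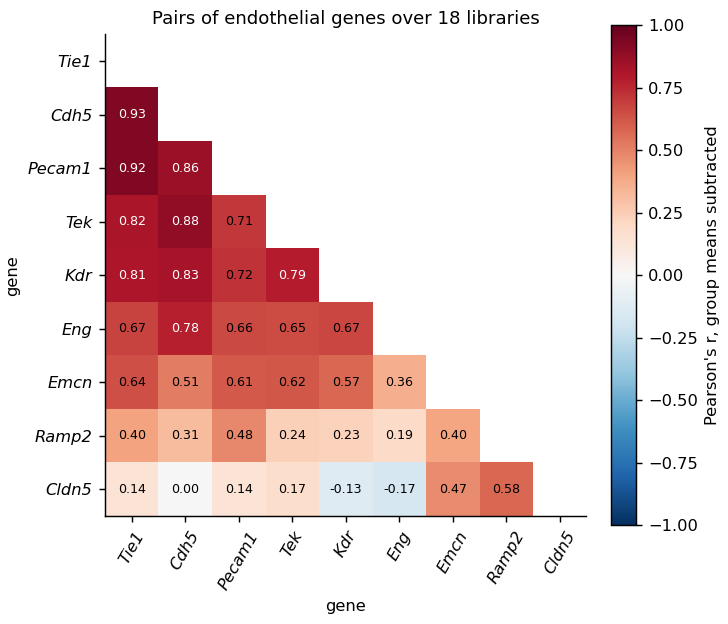
Pearson's r between log2 CPM of the 9 endothelial genes over 18 libraries, with group means subtracted (color scale from -1 to 1, value in each cell). The darkest cells are Tie1 with Cdh5 (0.928) and Tie1 with Pecam1 (0.924), and most cells of the Ramp2 and Cldn5 rows at the bottom are paler.

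The points of these correlations share libraries, and with them depth and RNA composition. Levels of Cdh5 followed the length slope of the library with r = 0.8 (rho = 0.598, permutation adjusted p = 0.00756 by r and 0.0525 by rho over 9 genes), and with 0.637 without the 2 farthest libraries. Kdr and Tek had r = 0.716 and 0.712 (rho = 0.573 and 0.406), which were 0.492 and 0.391 without those libraries. For Tie1 r was 0.671 (rho = 0.527) and for Eng 0.587 (rho = 0.564). In all, 5 of the 9 genes passed by r and 0 by rho. Emcn had r = 0.138 (rho = -0.0588), Ramp2 -0.11 (rho = -0.247) and Cldn5 -0.327 (rho = -0.569). By the ratio of count to FPKM, Cldn5 is among the shorter genes (percentile 15.7 of all genes) and Kdr among the longest (percentile 91.9). The others lie from 44.8 (Ramp2) to 78.4 (Pecam1), with Cdh5 at 57.7 and Emcn at 71.4. Cldn5, the shortest of the 9, had the lowest r, and Kdr, the longest, had 1 of the highest. Cdh5 and Emcn did not follow the order by length. The part of gene length in these correlations was not tested. With the slope removed, the median r over the 36 pairs was 0.575, against 0.595 with it. The lowest r of the 36 rose from -0.171 to 0.0276. For the 21 pairs without Ramp2 and Cldn5, the median fell from 0.709 to 0.638.

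**Figure D4:**
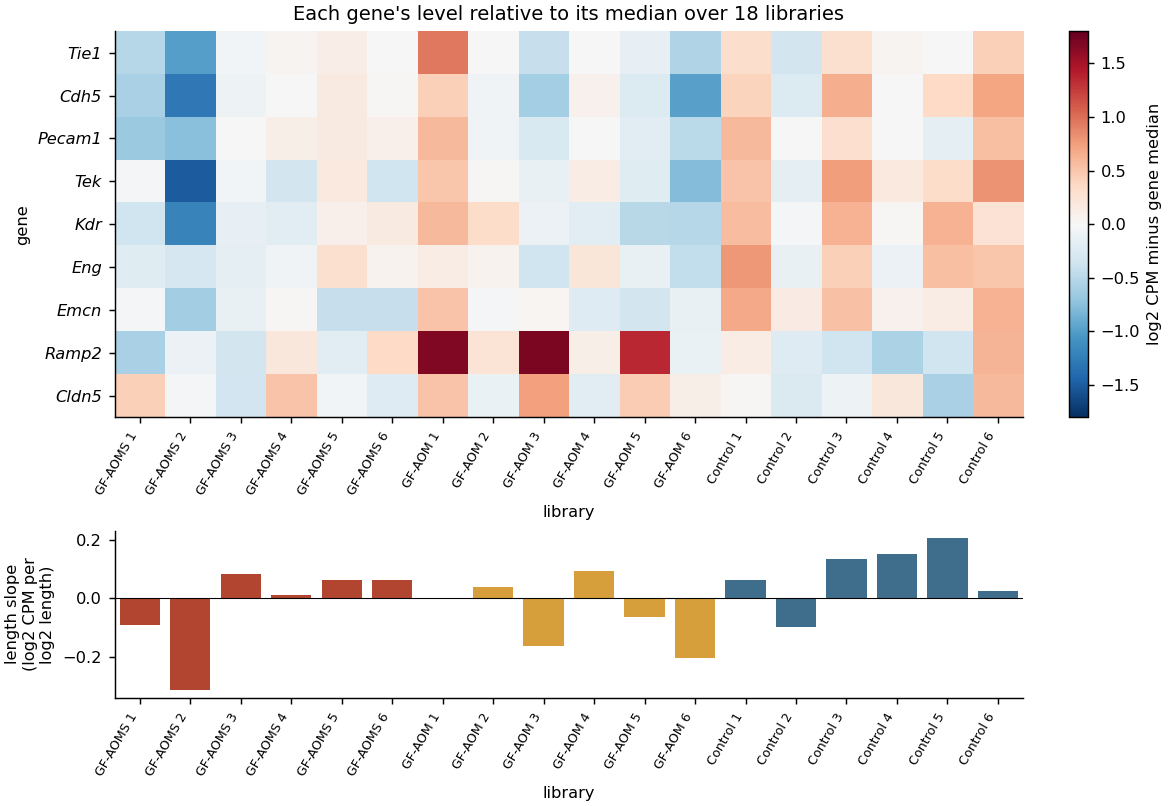
Top, log2 CPM of each endothelial gene minus its median over 18 libraries (color scale in log2 units), and bottom, the length slope of each library (log2 CPM per log2 length). GF-AOMS replicate 2 is blue for nearly all genes and has the lowest slope, and Ramp2 is dark red in GF-AOM replicates 1, 3 and 5.

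Outside the set, the genes whose log2 CPM most resembled the mean of the 9 standardised genes over the 18 libraries were ranked by Pearson's r, as a description and with group means left in. Cd300lg, an endothelial surface receptor also called nepmucin, came first (r = 0.919, rho = 0.948). Adgrf5, an adhesion receptor of endothelium, came second (r = 0.881, rho = 0.856), and Podxl, a sialomucin, ranked next (r = 0.88, rho = 0.804). They were followed by Golga5 (0.838), Syt7 (0.83), Golph3 (0.827), Mmrn2 (0.823), which encodes an endothelial matrix protein, and Adam15 (0.82). Group means of Cd300lg were 10.4 ± 2.06 CPM in GF-AOMS, 12.7 ± 3.75 CPM in GF-AOM and 14.9 ± 3.23 CPM in Control.

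A wider list of 39 endothelial genes, of which 29 were measured, was followed as well. By edgeR 0 of 29 were called in each comparison. An unadjusted p under 0.05 was reached by 0 for GF-AOMS vs GF-AOM, 6 for GF-AOM vs Control and 5 for GF-AOMS vs Control, beside 1.09%, 15.7% and 16.2% of all genes. Medians of the log2 difference in these comparisons were -0.13, -0.0526 and -0.2, with 23, 17 and 22 genes below 0. Cd34, a sialomucin of vessels and stroma, averaged 45.9 ± 4.77 CPM in GF-AOMS and 63.2 ± 13.2 CPM in Control. DESeq2 called it lower (log2 difference -0.45, adjusted p = 0.044), beside 3.44% of all genes called. This was the only call among the 29 by DESeq2 or limma in any comparison. The edgeR fit gave -0.46 for Cd34 (SE 0.133, adjusted p = 0.115). Myct1, a membrane protein of endothelium, averaged 4.07 ± 0.805 CPM in GF-AOMS and 6.13 ± 1.49 CPM in Control (log2 difference -0.59, SE 0.186, adjusted p = 0.143). Plvap, which forms the diaphragms of fenestrated capillaries, averaged 90.2 ± 28.9 CPM in GF-AOMS and 132 ± 24.1 CPM in Control (-0.55, SE 0.226, adjusted p = 0.254). In the other direction, Gpihbp1, the anchor of lipoprotein lipase on capillaries, averaged 8.31 ± 5.73 CPM in GF-AOM and 4.2 ± 1.52 CPM in Control (0.98, SE 0.363, adjusted p = 0.233). In GF-AOM its replicate 1 was at 19.4 CPM and the next at 9.29 CPM. For GF-AOMS vs Control, 7 of the 29 had a positive log2 difference, up to 0.742. Ecscr averaged 36.4 ± 18.7 CPM in GF-AOMS, 39.7 ± 14.9 CPM in GF-AOM and 21.8 ± 7.82 CPM in Control. Means of Egfl7 were 31.9 ± 15.3, 36.8 ± 10.9 and 25 ± 8.4 CPM in the same order of groups.

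Among partners of the receptors, the endoglin-BMP list had 14 of 17 genes measured and 0 called by edgeR in each comparison. Its unadjusted p was under 0.05 for 1 in GF-AOMS vs GF-AOM, 3 in GF-AOM vs Control and 5 in GF-AOMS vs Control. The shares of all genes were 1.09%, 15.7% and 16.2%. Acvrl1, the receptor kinase that works with Eng, averaged 28.6 ± 2.18 CPM in GF-AOMS, 34.4 ± 3.16 CPM in GF-AOM and 37.2 ± 5.48 CPM in Control. Its log2 difference was -0.27 (SE 0.104, adjusted p = 1) for GF-AOMS vs GF-AOM and -0.38 (SE 0.104, adjusted p = 0.0997) for GF-AOMS vs Control by edgeR. Smad6 and Smad7, the inhibitory Smads that dampen this pathway, had -0.82 (SE 0.227, adjusted p = 0.1) and -0.66 (SE 0.179, adjusted p = 0.0973) for GF-AOMS vs Control, which became -0.43 and -0.22 with the colon position term. DESeq2 called 4 of the 14 in that comparison, beside 3.44% of all genes. Acvrl1, Smad6 and Smad7 were lower (adjusted p = 0.03, 0.0238 and 0.0253 by DESeq2) and Smad4, the common Smad, higher (adjusted p = 0.0363). For GF-AOM vs Control DESeq2 called 1 of the 14, Smad6, lower (adjusted p = 0.0175), beside 2.66% of the genes it gave an adjusted p. Limma called 0 in each.

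The VEGF list had 6 of 12 genes measured beside Kdr, and 0 were called by edgeR, DESeq2 or limma or had an unadjusted p under 0.05 in any comparison. Vegfa, the main ligand of Kdr, averaged 22.5 ± 3.12 CPM in GF-AOMS, against 27.7 ± 3.98 CPM in GF-AOM (log2 difference -0.3, SE 0.142, adjusted p = 1 by edgeR). Of the angiopoietin-Tie list 4 of 9 were measured, not including the angiopoietins Angpt1 and Angpt2, and 0 were called by edgeR or limma in any comparison. An unadjusted p under 0.05 by edgeR was reached by 0 for GF-AOMS vs GF-AOM and by 2 in each comparison with Control. In these comparisons with Control, 15.7% (GF-AOM) and 16.2% (GF-AOMS) of all genes reached it. Tnip2, a binding partner of Tek that restrains NF-kappa B, averaged 12.3 ± 1.3 CPM in GF-AOMS, 13.1 ± 1.52 CPM in GF-AOM and 9.42 ± 1.73 CPM in Control. DESeq2 called it higher for GF-AOM vs Control (0.48, adjusted p = 0.0175), whereas edgeR gave 0.47 (SE 0.131, adjusted p = 0.122). DESeq2 called 2.66% of the genes it gave an adjusted p in that comparison.

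Bulk libraries hold RNA of other cell types, whose marker lists gave the following levels. Summed fibroblast markers were from 1440 to 2010 CPM in GF-AOMS, from 1580 to 2060 CPM in GF-AOM and from 1240 to 3220 CPM in Control, and 11 of 11 had a negative difference for GF-AOMS vs Control and 10 of 11 for GF-AOM vs Control. Summed macrophage markers were from 879 to 2610, from 864 to 2400 and from 513 to 1800 CPM in the same order. For GF-AOM vs Control 11 of 11 were positive, and 9 of 11 with the length slope term. Smooth muscle markers summed to 2530 to 14400 CPM in GF-AOMS, 4200 to 6800 CPM in GF-AOM and 1940 to 5660 CPM in Control, with 12 of 12 positive in both comparisons with Control. With the length slope term, 7 of 12 were positive for GF-AOM vs Control and 9 of 12 for GF-AOMS vs Control. For epithelium the sums were 11100 to 13400, 9090 to 13500 and 12000 to 17700 CPM. There, 9 of 12 were negative in both comparisons with Control, and 11 of 12 with the length slope term. Of all genes, 50.5% lay below 0 for GF-AOM vs Control and 49% for GF-AOMS vs Control, without that term. Of 8 platelet genes only Pf4 was in the table, at 6.72 to 30 CPM in GF-AOMS, 7.76 to 28.3 CPM in GF-AOM and 8.73 to 14.9 CPM in Control. Erythrocyte genes, the globins Hba-a1, Hba-a2, Hbb-bs and Hbb-bt, summed to 125 to 873, 78.6 to 900 and 95.3 to 470 CPM. Hbb-bs was at 371 CPM in GF-AOM replicate 1, the library with the highest endothelial sum, and at 30.8 to 117 CPM in the other GF-AOM libraries. It was at 345 CPM in GF-AOMS replicate 2, the library with the lowest endothelial sum, and at 47.6 to 211 CPM in the other GF-AOMS libraries. By edgeR and by limma 0 genes of these lists were called. With unadjusted p under 0.05 there were, for GF-AOMS vs GF-AOM, GF-AOM vs Control and GF-AOMS vs Control, 0, 1 and 5 fibroblast genes, 2, 2 and 1 macrophage genes, 0, 0 and 2 smooth muscle genes, 0, 7 and 5 epithelial genes and 0 platelet or erythrocyte genes throughout, all by edgeR. Of all genes, 1.09%, 15.7% and 16.2% reached that p in these comparisons. DESeq2 called 1 epithelial gene (Epcam, lower for GF-AOM vs Control) and 1 macrophage gene (Cd14, higher for GF-AOMS vs Control). It called 2.66% and 3.44% of the genes it gave an adjusted p in these comparisons. The part of these cell types in the endothelial differences was not tested.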

How the data were processed

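RNA of colorectal tissue was sequenced in 18 libraries, 6 per group, in 1 batch per the labels. The submitters' processing notes name featureCounts, DESeq2 and build GRCm39. For their versions, the aligner and the strand setting, the sources used here give nothing. The authors deposited read counts and FPKM values for 10897 genes. Positions are those of the table. Of its genes 10890 were found in GENCODE M21 (build GRCm38), 90.19% of them with start and end each within 100 bases of that annotation, so the positions match GRCm38.

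Counts were fitted over all 18 libraries with edgeR 4.0.16 in R 4.3.3 (TMM scaling, quasi-likelihood test, no covariate, 15 residual degrees of freedom, two-sided, Benjamini-Hochberg over all genes, adjusted p under 0.05). Log2 CPM used a prior count of 2. DESeq2 1.42.0 and limma 3.58.1 on log2(FPKM + 1) were alternatives, with other scalings and filters, a replicate block, a colon position term and leaving out each library. Colon position was the mean standardised log2 CPM of the measured genes among Hoxa13, Hoxb13 and Hoxd13. The length slope used 10690 genes. Correlations used 100000 permutations within groups, for which the smallest p is 1e-05. The fit was tested on simulated data, and no 2 libraries held the same counts.

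The genes and lists were chosen with earlier results of these data known. Every endothelial gene is reported in every comparison, and from each list the genes with the smallest p or a call are named. The 8 genes most like the set leave out clone names, pseudogenes and immunoglobulin segments.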

Additional observations from a re-analysis of the deposited data

Results flagged for a closer look

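In 3 of 27 sets of 6 libraries (9 genes in 3 groups), 1 library stood apart from the others by Dixon's criterion, for which chance flags about 1 in 20 sets. All were GF-AOM replicate 1. Emcn was at 15.4 CPM there and at 8.55 to 11.1 CPM in the other GF-AOM libraries, a gap of 0.628 of the range. Tie1 was at 35.6 CPM against 12.6 to 18.4 CPM, a gap of 0.748 of the range. Pecam1 was at 90.2 CPM against 42.7 to 59.5 CPM, a gap of 0.646 of the range. Without this library the log2 differences for GF-AOM vs Control were -0.51 for Emcn, -0.35 for Tie1 and -0.43 for Pecam1. The globin transcript Hbb-bs was also highest there, at 371 CPM against 30.8 to 117 CPM in the other GF-AOM libraries. What set the library apart was not tested.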

How the results depend on the processing

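Of 795 values of the 9 genes under alternatives, 754 kept direction and side of the threshold, 38 changed sign and 3 became calls. The counts over all genes moved most, and their cause was not tested. For GF-AOMS vs GF-AOM, DESeq2 called 3 genes, the length slope term 2 and the fit without the 5 libraries with a TMM factor under 0.9 called 1. For GF-AOM vs Control, DESeq2 called 284, that same reduced fit 132, and library totals, both limma fits, the 2 groups alone and the colon position term 0. For GF-AOMS vs Control, DESeq2 called 375, the reduced fit 277, library totals 28, limma 19 (pseudocount 1) and 20 (0.1), the length slope term 2, and the 2 groups alone, the colon position term and the fit without the Control libraries low in Hoxa13 called 0. Leaving out single libraries gave 0 to 356 for GF-AOM vs Control and 0 to 493 for GF-AOMS vs Control, both highest without Control replicate 2. The count was 0 for 14 of the 18 libraries left out in the first comparison and for 7 in the second. Endothelial calls were 1 in each comparison with Control by DESeq2, and from 0 to 1 for GF-AOMS vs Control with single libraries left out. The fits with the length slope and without libraries by TMM factor or Hoxa13 were chosen after seeing the data.

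Same-numbered pairs correlated over 0.1 in 1 of 6 for GF-AOMS vs GF-AOM, 2 for GF-AOM vs Control and 4 for GF-AOMS vs Control. In the last comparison r ran from -0.392 (replicate 6) to 0.517 (replicate 2). There, 3 of 6 GF-AOMS and 4 of 6 Control libraries correlated best with their own number. For GF-AOM vs Control these counts were 0 and 2, and for GF-AOMS vs GF-AOM 0 and 0. Whether replicate numbers pair the libraries was not tested. With the replicate block, 2 genes were called for GF-AOM vs Control and 33 for GF-AOMS vs Control, with 0 endothelial genes in each.

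Signs turned for differences near 0. For GF-AOMS vs GF-AOM these were Cdh5 with library totals (0.00261), and Eng with the length slope term (-0.001765) and without low TMM factors (-0.04535). Leaving out single libraries gave -0.164 to 0.06926 for Pecam1, -0.06471 to 0.0759 for Eng, -0.165 to 0.1031 for Cdh5 and -0.335 to 0.02262 for Tie1. For GF-AOM vs Control, Tie1 was at 0.185 with the length slope term, 0.05503 without low TMM factors, 0.03755 without the Control libraries low in Hoxa13, and -0.345 to 0.0121 with single libraries left out. For GF-AOMS vs Control, Ramp2 was at 0.01279 with DESeq2, 0.01253 with RLE scaling, 0.003367 with an FPKM filter of 5 in 6 libraries, 0.008203 with the 2 groups alone, 0.05082 with the block and 0.08277 without low TMM factors, and at -0.106 to 0.1872 with single libraries left out. Cldn5 was at -0.05411 with the length slope term, -0.07009 without low TMM factors, and -0.04338 to 0.205 with single libraries left out. The FPKM filter removed Tek, Cdh5, Tie1, Emcn and Kdr, which have no value there.

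The median r over the 36 pairs was 0.595, and 0.576 by Spearman's rho, 0.579 in the 12 GF libraries and 0.46 without the 2 farthest libraries. Standard errors from 0.164 to 0.312 limit what 6 libraries a group can show, and a p that misses the threshold does not show that levels were the same.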

Other observations

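Genes next to the endothelial set were described in the same way. Of the VE-cadherin junction list, whose members are also made by epithelium, 11 of 12 were measured and 0 were called by edgeR. An unadjusted p under 0.05 was reached by 0 for GF-AOMS vs GF-AOM, 7 for GF-AOM vs Control and 3 for GF-AOMS vs Control. The shares of all genes were 1.09%, 15.7% and 16.2%. With the length slope term, 2 and 3 of the 11 reached it in the comparisons with Control. That term moved the list's median log2 difference from -0.408 to -0.105 for GF-AOM vs Control and from -0.379 to -0.0856 for GF-AOMS vs Control. F11r, a junctional adhesion molecule, had log2 differences of -0.37 (SE 0.109, adjusted p = 0.146 by edgeR) for GF-AOM vs Control and -0.38 (SE 0.109, adjusted p = 0.112) for GF-AOMS vs Control. DESeq2 called F11r lower in both (adjusted p = 0.0309 and 0.0236) and called no other gene of the list. It called 2.66% and 3.44% of the genes it gave an adjusted p in these comparisons. Ctnnb1 (beta-catenin) had -0.5 (SE 0.162) and -0.41 (SE 0.162) in the same comparisons.

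Of 22 endothelial transcription factors 9 were measured and 0 were called by edgeR, DESeq2 or limma, with 0, 0 and 1 at an unadjusted p under 0.05 by edgeR. These counts are for GF-AOMS vs GF-AOM, GF-AOM vs Control and GF-AOMS vs Control. Of all genes, 1.09%, 15.7% and 16.2% reached that p by edgeR, and 0%, 0.00918% and 0.734% were called by edgeR. Sox18, a factor of vessel and lymphatic development, had a log2 difference of -0.43 (SE 0.204, adjusted p = 0.305) for GF-AOMS vs Control, and Epas1, a hypoxia-inducible factor, -0.5 (SE 0.256, adjusted p = 0.34), which was -0.19 with the length slope term. The lymphatic list had 6 of 9 measured and the pericyte list 5 of 11, and in both 0 were called by any of these tools or had an unadjusted p under 0.05. The same shares of all genes apply to the edgeR counts of both lists. Lyve1, the lymphatic hyaluronan receptor, had -0.43 (SE 0.228, adjusted p = 0.349) for GF-AOMS vs Control, and Rgs5, a pericyte gene, averaged 298 ± 127 CPM in GF-AOMS, 350 ± 104 CPM in GF-AOM and 326 ± 122 CPM in Control.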
